A study of Mus musculus with 14 samples.

Results

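The germline genes Dazl, Ddx4, Sycp1, Sycp3, Mael, Tex19.1, Slc25a31 and Tex101 were followed through the differentiation of mouse embryonic stem cells (ESCs). They were chosen by name as genes whose promoters are known to be silenced by DNA methylation outside germ cells, and make up 8 of the 50686 genes in the count table and 8 of the 16181 protein-coding genes with deposited CPM values. RNA was sequenced from 2 ESC lines, each stably expressing a short hairpin RNA, directed against LacZ in the control line (shLacZ) or against the exoribonuclease Dis3l2 in the other (shDis3l2). Each line was sampled undifferentiated in medium with LIF and the 2 inhibitors called 2i (d0), and as embryoid bodies (EBs), aggregates that differentiate in serum after LIF and 2i are withdrawn, every second day from d2 to d12. That gave 14 libraries, 1 per line and day, so no day has a replicate check within a line, and whether each line is a single clone is not given in the sources used here. The EBs are mixtures of cell types, and in bulk RNA fewer cells expressing a gene and less of its RNA per cell cannot be told apart.

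In somatic cells the CpG-rich promoters of these genes carry DNA methylation, laid down around implantation by the de novo enzymes Dnmt3a and Dnmt3b, and primordial germ cells later lose it and start to express them. ESCs kept in 2i have little DNA methylation, and the genes can be transcribed there without any germ cell being present. Dazl and Ddx4 (also called Vasa) are RNA-binding proteins of germ cells, Sycp1 and Sycp3 build the synaptonemal complex that holds homologous chromosomes together in meiosis, Mael and Tex19.1 act against transposons, Slc25a31 is the ADP/ATP carrier of spermatogenic mitochondria, and Tex101 is a surface protein of spermatogenic cells.

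In GRCm38, Dazl (ENSMUSG00000010592) was counted over chr17:50279394-50293599, Ddx4 (ENSMUSG00000021758) over chr13:112598333-112652310, Sycp1 (ENSMUSG00000027855) over chr3:102818499-102936100 and Mael (ENSMUSG00000040629) over chr1:166201201-166238747, all on the minus strand. Tex101 (ENSMUSG00000062773), also on the minus strand, was counted over chr7:24668007-24676675. On the plus strand, Sycp3 (ENSMUSG00000020059) lies at chr10:88459569-88473236, Tex19.1 (ENSMUSG00000039329) at chr11:121146143-121148319 and Slc25a31 (ENSMUSG00000069041) at chr3:40708855-40726096. Exons of Sycp3 overlap exons of Chpt1 on the other strand, and as the strand setting of the counting is not given in the sources used here, reads of the pair cannot be told apart there. Chpt1 was counted at 7.99 to 19.7 CPM over the 14 libraries.

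Promoter windows of 300 bases, 250 before and 50 after the start site, were matched in RefSeq (GRCm38.p6) for all 8 genes. The ratio of observed to expected CpG was at least 0.6 in 7 of the 8, from 0.67 in Sycp3 to 0.98 in Ddx4, and 0.58 in Tex19.1, while 35.8% of 32851 windows of all genes reached 0.6. The window of Tex101, 1 of those 7, was chr7:24672001-24672300, which lies inside the span over which the gene was counted. The E-box CACGTG, searched on both strands, occurred in 5 of the 8 windows (Ddx4, Sycp1, Sycp3, Mael and Slc25a31) and in 7.15% of all windows. The E2F core GCGGGA occurred on either strand in 6 of the 8, all except Dazl and Tex101, and in 20.0% of all windows. A match describes the letters in the window and does not show that a factor binds. Sequence is shown for 2 genes that were high at d0 and for 2 that were low at d0 and highest at d2. Of the first 2, Tex19.1 also had its highest CPM at d2 in both lines. The bases shown lie upstream of the annotated exons, with their CpGs in capitals for comparison. They are chr17:50293637-50293870 (minus strand, 234 bases, 19 CpGs) for Dazl, chr11:121145893-121146142 (plus strand, 250 bases, 15 CpGs) for Tex19.1, chr3:102936101-102936350 (minus strand, 250 bases, 17 CpGs) for Sycp1 and chr1:166238748-166238994 (minus strand, 247 bases, 18 CpGs) for Mael.
Dazl: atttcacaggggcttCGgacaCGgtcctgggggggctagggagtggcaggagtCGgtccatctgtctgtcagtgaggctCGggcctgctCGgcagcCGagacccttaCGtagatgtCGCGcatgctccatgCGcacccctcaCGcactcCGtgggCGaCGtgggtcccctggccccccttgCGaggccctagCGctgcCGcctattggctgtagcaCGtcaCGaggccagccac
Tex19.1: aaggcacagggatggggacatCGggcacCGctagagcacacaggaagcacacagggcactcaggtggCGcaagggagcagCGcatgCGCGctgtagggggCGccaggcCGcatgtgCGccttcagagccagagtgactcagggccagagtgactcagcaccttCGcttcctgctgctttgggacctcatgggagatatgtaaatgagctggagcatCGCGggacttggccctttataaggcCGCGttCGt
Sycp1: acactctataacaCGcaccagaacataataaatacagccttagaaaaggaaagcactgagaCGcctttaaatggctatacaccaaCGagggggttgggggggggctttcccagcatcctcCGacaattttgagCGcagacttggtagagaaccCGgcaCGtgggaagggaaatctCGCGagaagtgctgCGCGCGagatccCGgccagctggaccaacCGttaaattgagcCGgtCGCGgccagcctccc
Mael: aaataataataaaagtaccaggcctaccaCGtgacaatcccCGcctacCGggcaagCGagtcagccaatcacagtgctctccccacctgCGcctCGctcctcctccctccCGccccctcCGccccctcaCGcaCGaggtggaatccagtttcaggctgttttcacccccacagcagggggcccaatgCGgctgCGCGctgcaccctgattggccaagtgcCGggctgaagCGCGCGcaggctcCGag

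Library totals on genes ran from 7178712 to 39888099 reads. A floor of 3 counts equalled 0.0752 CPM for shLacZ d0, the deepest, and 0.418 CPM for shLacZ d4, the shallowest. Levels are given as counts scaled to the library total (CPM), and where genes are compared with each other, per kilobase of exon as well (RPKM). All intervals cover counting error alone. Dis3l2 itself was lower in shDis3l2 at d0, with 3.93 against 28.7 CPM, and at d2, d4 and d6, but at d8 and d10 it was counted at 19.6 and 18.3 CPM in shDis3l2 against 20.2 and 19.25 CPM in shLacZ, a ratio of 0.971 (95% interval 0.837 to 1.13) and 0.95 (0.788 to 1.15). On those 2 days the Dis3l2 level did not separate the lines beyond counting error. At d12 the ratio was 0.755 (0.609 to 0.934). The 5 ESC markers Pou5f1, Nanog, Sox2, Esrrb and Zfp42 were all present at d0, with a summed level of 2470 CPM in shLacZ and 1593 CPM in shDis3l2.

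Dazl and Tex19.1 were the germline genes most abundant in 2i. Dazl stood at 80.2 CPM (shLacZ) and 77.2 CPM (shDis3l2) at d0, and in the same order at 16.6 and 20.0 CPM at d2, 2.23 and 0.97 CPM at d4, 0.90 and 0.28 CPM at d6, 1.72 and 0.97 CPM at d8, 0.73 and 4.31 CPM at d10, and 0.89 and 6.74 CPM at d12. Both libraries of d0 lay above every later library, and those of d2 above all from d4 on. Tex19.1 was counted at 71.0 and 78.9 CPM at d0 and still at 94.0 and 84.4 CPM at d2, and then at 9.89 and 5.80 CPM at d4, 7.59 and 0.94 CPM at d6, 8.34 and 2.09 CPM at d8, 8.59 and 6.06 CPM at d10, and 6.94 and 8.24 CPM at d12. Its 4 libraries of d0 and d2 lay above the 10 later ones with no overlap. Tex101 was low throughout, with 23 and 27 reads at d0 (0.58 and 1.02 CPM), 31 and 17 reads at d2 (1.18 and 0.79 CPM), and between 0 and 4 reads in each library from d4 on. Its later levels therefore lay close to the floor, and in 5 of those 10 libraries no read was counted, which allows up to 0.142 to 0.418 CPM.

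Ddx4, Sycp1, Mael and Slc25a31 were low in 2i and reached their highest level at d2 in both lines. Ddx4 stood at 1.93 CPM (shLacZ) and 1.28 CPM (shDis3l2) at d0, at 30.5 and 26.4 CPM at d2, and went on at 19.5 and 10.6 CPM at d4, 8.04 and 2.17 CPM at d6, 6.57 and 1.17 CPM at d8, 3.87 and 1.80 CPM at d10, and 2.58 and 2.25 CPM at d12. It was the slowest of the 4 to leave its peak. Sycp1 had 6 and 5 reads at d0 (0.15 and 0.19 CPM), 164 and 125 reads at d2 (6.22 and 5.84 CPM), and between 0 and 11 reads in each later library, at most 0.70 CPM. The d2 libraries of Sycp1 stood apart from the other 12. Mael was counted at 2.03 and 1.06 CPM at d0, 11.4 and 10.7 CPM at d2, 1.53 and 1.5 CPM at d4, 0.75 and 0.094 CPM at d6, 1.24 and 0.20 CPM at d8, 1.69 and 0.99 CPM at d10, and 0.30 and 1.87 CPM at d12. Slc25a31 was counted at 0.43 and 1.59 CPM at d0, 6.48 and 10.7 CPM at d2, 0.84 and 0.48 CPM at d4, and from d6 on with 1 to 11 reads per library, at most 1.03 CPM. In both genes every library of d2 lay above all others.

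Sycp3 had the flattest course. It was counted at 12.7 and 8.76 CPM at d0, 13.5 and 14.1 CPM at d2, 13.8 and 13.7 CPM at d4, 7.67 and 3.02 CPM at d6, 14.1 and 3.26 CPM at d8, 7.50 and 3.36 CPM at d10, and 5.16 and 3.28 CPM at d12. From d6 on every shDis3l2 library lay below every shLacZ library. Per kilobase of exon the order at d0 was Tex19.1 (37.9 and 42.1 RPKM), Dazl (27.3 and 26.2 RPKM) and Sycp3 (10.0 and 6.93 RPKM), with the other 5 genes at 1.17 RPKM or less. At d2 it was Tex19.1 (50.2 and 45.1 RPKM), then Sycp3 (10.7 and 11.2 RPKM) and Ddx4 (10.7 and 9.28 RPKM), whose order differed between the lines, and Dazl, Mael, Slc25a31, Sycp1 and Tex101 below them.

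**Figure D1:**
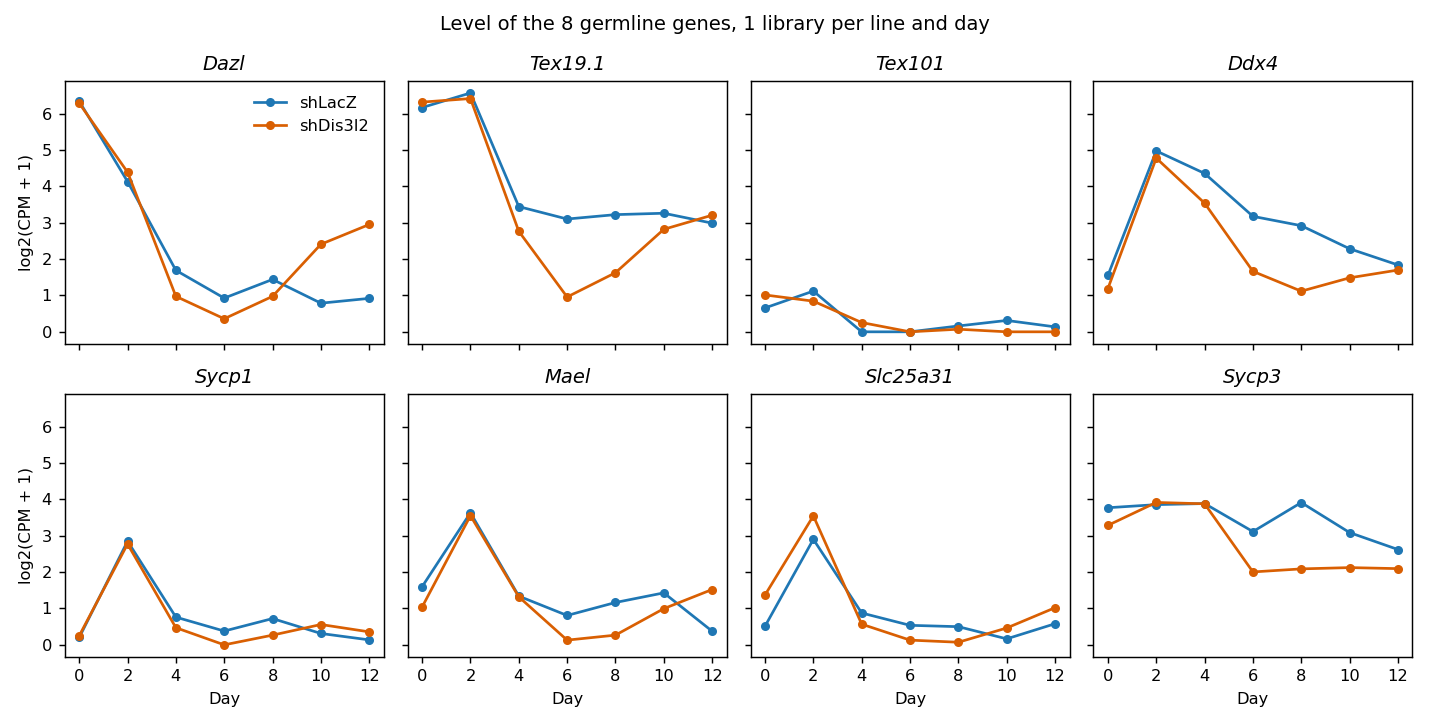
Level of each gene as log2(CPM + 1) against day, with 1 point per library, shLacZ in blue and shDis3l2 in orange. Dazl fell from 80.2 and 77.2 CPM at d0, Tex19.1 stayed high until d2, Ddx4, Sycp1, Mael and Slc25a31 peaked at d2, and Sycp3 was the flattest.

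Whether the genes were higher in 2i than in EBs was tested with edgeR over all 14 libraries, with day and line in the model, so that the 2 lines stood in for replicates of a day and the p-values do not compare these cultures with others. Unless DESeq2 is named, adjusted p-values are from edgeR's quasi-likelihood test with Benjamini-Hochberg adjustment over all genes tested in that fit, here 20050, and all 8 germline genes passed the filter on low counts. Each SE is an approximation, the absolute log2 difference divided by the square root of the F statistic of that test. Against the mean of the 6 later days, 4 of 8 were higher at d0 and 1 of 8 lower, beside 35.2% and 39.2% of all genes tested. The median log2 difference was 1.14 for the 8 and -0.24 for all genes tested. The largest was that of Dazl, 5.62 on the log2 scale (SE 0.42, adjusted p = 8.31e-07), followed by Tex101 with 3.81 (SE 0.70, adjusted p = 8e-04) and Tex19.1 with 3.67 (SE 0.37, adjusted p = 6.64e-06). Sycp3 was higher at d0 by 1.12 (SE 0.34, adjusted p = 0.0124) and Ddx4 lower by a log2 difference of -1.30 (SE 0.45, adjusted p = 0.0225). The calls of these last 2 were lost without 1 library or day, Ddx4 without the shLacZ library of d0 (-0.90), without d2 (-0.75) or without d4 (-1.04), and Sycp3 without the shDis3l2 library of d0 (0.83). Slc25a31 (1.16, adjusted p = 0.10), Mael (0.67, adjusted p = 0.295) and Sycp1 (-1.0, adjusted p = 0.19) did not pass the test. Without the shLacZ library of d0 Slc25a31 passed it with 2.00 (adjusted p = 0.0212), without d2 with 1.99 (adjusted p = 0.0223), and without the shDis3l2 library of d0 it was -0.13. With library totals in place of TMM factors the median of all genes moved to -0.83, and 33.4% instead of 47.3% of the called genes were higher at d0. Dazl, Tex19.1 and Tex101 were called higher at d0 and Ddx4 lower under that scaling too, while Sycp3 lost its call (0.52, adjusted p = 0.188) and Sycp1 gained one (-1.57, adjusted p = 0.0453). Without the filter Slc25a31 passed the test (1.23, adjusted p = 0.0452), and without the line term Ddx4 and Sycp3 did not (adjusted p = 0.0829 and 0.0587).

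From d0 to d2 the 8 genes went different ways. Sycp1 rose by 4.56 on the log2 scale (SE 0.71, adjusted p = 2.65e-04), Ddx4 by 3.63 (SE 0.56, adjusted p = 2.57e-04), Slc25a31 by 2.52 (SE 0.75, adjusted p = 0.0126) and Mael by 2.31 (SE 0.73, adjusted p = 0.0176), while Dazl fell by 2.72 (SE 0.69, adjusted p = 0.00572). Thus 4 of 8 were higher and 1 of 8 lower, beside 34.5% and 31.0% of all genes tested. Without the shLacZ library of d0 Mael (2.44) and Slc25a31 (1.68) no longer passed, and without the shDis3l2 library Mael (2.16) did not. Sycp3 (-0.17), Tex19.1 (-0.42) and Tex101 (-0.31) had adjusted p of 0.775, 0.534 and 0.737, and their sign turned with library totals.

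Within each line the same 5 genes were at least 3-fold apart between d2 and d0, counted with at least 1 CPM and more than 3 reads in 1 of the libraries compared. In shLacZ, Sycp1 was 37.9-fold higher at d2 (95% interval 18.6 to 114), Ddx4 15.7-fold (12.5 to 20.2), Slc25a31 14.8-fold (9.22 to 26.7) and Mael 5.59-fold (4.38 to 7.27), and Dazl was 4.84-fold lower (4.38 to 5.37). In shDis3l2, Sycp1 was 28.9-fold higher (12.9 to 96.9), Ddx4 20.4-fold (14.6 to 30.0), Mael 10.0-fold (6.85 to 15.6) and Slc25a31 6.70-fold (4.84 to 9.61), and Dazl was 3.86-fold lower (3.48 to 4.29). Of all protein-coding genes compared, 26.5% were at least 3-fold higher and 10.5% lower in shLacZ, and 33.4% and 10.2% in shDis3l2. These folds used library totals, and the median log2 fold of all genes compared lay above 0. It was 0.50 (shLacZ) and 0.78 (shDis3l2) at d2, and 0.64 and 1.16 at d12. At d12 none of the germline genes was 3-fold above d0 in either line. In shLacZ 3 of them were at least 3-fold below it, Dazl (88.5-fold, 47.3 to 197), Tex19.1 (10.2-fold, 8.07 to 13.2) and Mael (6.57-fold, 2.25 to 33.8, from 3 reads at d12), beside 31.5% of genes higher and 12.0% lower. The shDis3l2 line also had 3, Dazl (11.4-fold, 9.05 to 14.7), Tex19.1 (9.56-fold, 7.73 to 12.0) and Tex101, listed with no read at d12 and below 0.275 of its d0 level at the floor, beside 42.9% higher and 10.4% lower.

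Between d2 and d4, a comparison chosen after the levels had been seen, 5 of 8 genes were called lower and none higher, beside 8.23% and 9.25% of all genes tested. Slc25a31 fell by 3.83 on the log2 scale (SE 0.87, adjusted p = 0.0147), Dazl by 3.70 (SE 0.84, adjusted p = 0.0145), Tex19.1 by 3.6 (SE 0.65, adjusted p = 0.00529), Sycp1 by 3.58 (SE 0.69, adjusted p = 0.00688) and Mael by 2.85 (SE 0.78, adjusted p = 0.0307, and 0.0634 without the line term). Tex101 (-2.79, adjusted p = 0.10), Ddx4 (-1.06, adjusted p = 0.179) and Sycp3 (-0.03, adjusted p = 0.988) did not pass. The median over the 8 was -3.22, and -0.05 over all genes tested. The shLacZ library of d4 was the shallowest of the series, and the part of depth in these differences was not tested.

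**Figure D2:**
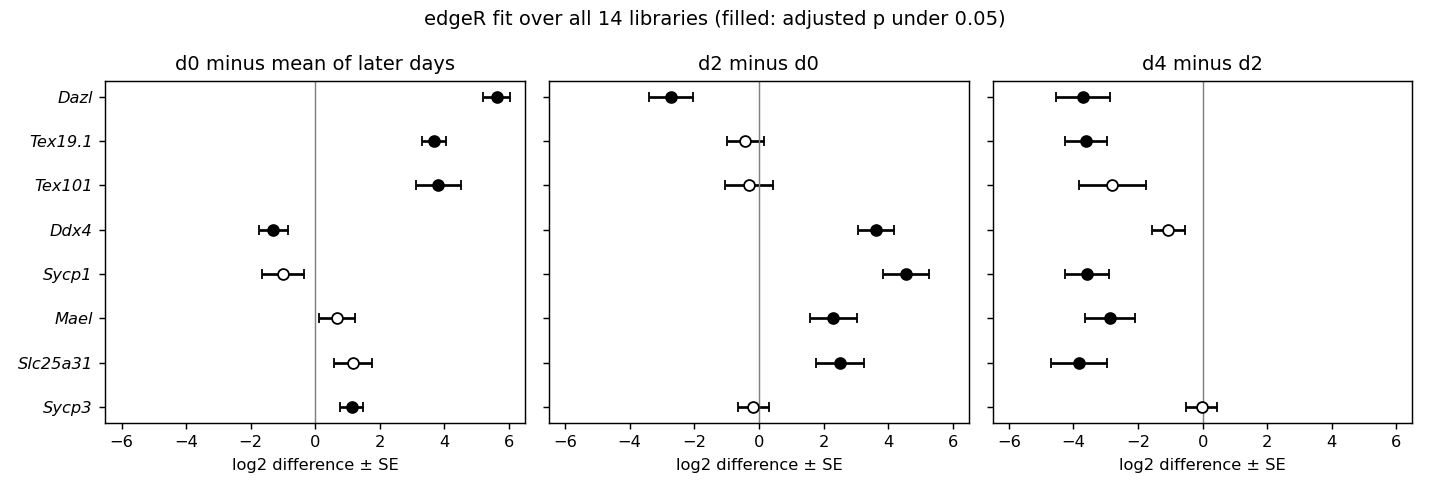
Log2 difference of each gene with its approximate standard error, derived from the F statistic, in 3 contrasts of the edgeR fit over the 14 libraries. Points are filled where the adjusted p was under 0.05. Dazl is high at d0 and falls in both steps, Sycp1, Ddx4, Slc25a31 and Mael rise to d2, and 5 genes fall from d2 to d4.

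Set against d0, the genes called on each later day were mostly lower. At d4, 1 of 8 was called higher (Ddx4, 2.57) and 3 lower (Dazl, Tex19.1 and Tex101), beside 34.6% and 31.6% of all genes tested. At d6, 5 were lower (Dazl, Tex19.1, Tex101, Mael and Sycp3) and none higher, beside 33.1% and 36.1%. At d8, 4 were lower (Dazl, Tex19.1, Tex101 and Slc25a31), beside 32.3% lower and 39.0% higher, and at d10 5 were lower (those 4 and Sycp3), beside 31.6% lower and 40.0% higher. At d12, 4 were lower (Dazl, Tex19.1, Tex101 and Sycp3), beside 31.2% lower and 40.0% higher. Dazl and Tex19.1 were thus below d0 on each of these 5 days, Dazl by 7.52 at d6 and 5.10 at d12 on the log2 scale and Tex19.1 by 4.93 and 3.99. Ddx4 was not called on the last 4 of these days. Without the shDis3l2 library of d0, 3 genes instead of 5 were called at d6, 2 instead of 4 at d8 and 2 instead of 5 at d10. With library totals the calls of Sycp3 and Mael at d6, of Slc25a31 at d8, of Sycp3 and Slc25a31 at d10 and of Tex101 at d4 were lost, with adjusted p of 0.057 to 0.115.

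The lines were compared day by day from 1 library each. At d2 none of the 8 genes was 3-fold apart, and 0.114% of the genes compared were higher and 0.129% lower in shDis3l2. At d0 Slc25a31 was 3.64-fold higher in shDis3l2 (2.07 to 6.97), from 42 against 17 reads, beside 0.584% of genes higher and 2.25% lower. At d4 none reached 3-fold, beside 0.361% and 1.68%. The genes whose interval lay wholly below no difference at d4 were Dazl (2.29-fold lower, 1.12 to 4.68), Ddx4 (1.83-fold lower, 1.47 to 2.28) and Tex19.1 (1.70-fold lower, 1.25 to 2.31).

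At d6 and at d8, each of the 7 genes with more than 3 reads in 1 of the 2 libraries had its lower level in shDis3l2, Tex101 having at most 2 reads. At d6 Tex19.1 was 7.95-fold lower (4.20 to 17.3) and Ddx4 3.69-fold lower (2.35 to 6.10), so that 2 of the 3 germline genes with enough reads were called lower, beside 4.23% of genes lower and 2.7% higher. At d8 4 of 5 were called lower, Mael by 5.78-fold (2.06 to 24.5), Ddx4 by 5.56-fold (3.56 to 9.22), Sycp3 by 4.31-fold (3.27 to 5.79) and Tex19.1 by 3.98-fold (2.81 to 5.81), beside 3.71% lower and 5.47% higher. Dazl was 1.76-fold lower at d8 (0.962 to 3.35), an interval that holds no difference. The summed level of the 5 ESC markers was lower in shDis3l2 on the same days, 38.9 against 282 CPM at d6 and 47.9 against 303 CPM at d8. Visceral endoderm markers (5 genes) were lower too, at 90.1 against 284 CPM (d6) and 288 against 1139 CPM (d8). Mesenchyme markers (5 genes) were higher, at 1007 against 308 CPM (d6) and 9298 against 1750 CPM (d8), and those of cardiomyocytes, neural cells, blood and endothelium were also higher on both days. No ESC, visceral endoderm or mesenchyme marker was at 0 in these libraries. Of the neural markers, Neurog2 was at 0 in both lines on both days, and Sox1 was at 0 in shDis3l2 at d8 but not in shLacZ. The part of these cell types in the difference of the germline genes was not tested.

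At d10 and d12 the direction differed between genes. Dazl was 5.84-fold higher in shDis3l2 at d10 (2.62 to 16.6), from 91 against 6 reads, and 7.45-fold higher at d12 (3.77 to 17.2), from 72 against 9 reads. Mael was 6.06-fold higher at d12 (1.87 to 33.1), from 20 against 3 reads. Thus 1 gene was called higher at d10 and 2 at d12, and none lower, beside 8.65% higher and 3.13% lower at d10 and 8.1% higher and 1.41% lower at d12. Ddx4 (2.14-fold lower, 1.30 to 3.54) and Sycp3 (2.23-fold lower, 1.56 to 3.18) were still lower at d10, as was Tex19.1 (1.42-fold lower, 1.05 to 1.91). At d12 Sycp3 was lower by 1.57-fold (1.01 to 2.49), and Ddx4 (1.15-fold lower, 0.633 to 2.09) and Tex19.1 (1.19-fold higher, 0.857 to 1.65) had intervals that hold no difference. The ESC markers summed to 123 against 369 CPM at d10 and 235 against 326 CPM at d12, those of mesenchyme to 15130 against 1839 CPM and 16010 against 1364 CPM, and those of visceral endoderm to 745 against 2442 CPM and 604 against 1581 CPM. Among the ESC markers at d12, Nanog stood higher in shDis3l2 than in shLacZ (50.4 against 43.8 CPM), and the others stood lower. The 6 germ cell markers of the marker list include Dazl and Ddx4. In shDis3l2 and shLacZ they summed to 20.3 and 36.1 CPM at d6 and 12.7 and 25.8 CPM at d8. In the same order the sums were 24.8 and 25.9 CPM at d10 and 42.1 and 23.5 CPM at d12. The markers did not move together at d12. Tfap2c (19.0 against 8.33 CPM), Dppa3 (4.87 against 1.88 CPM), Dazl and Nanos3 stood higher in shDis3l2 than in shLacZ. Prdm1 (7.77 against 9.025 CPM) and Ddx4 (2.25 against 2.58 CPM) stood lower.

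**Figure D3:**
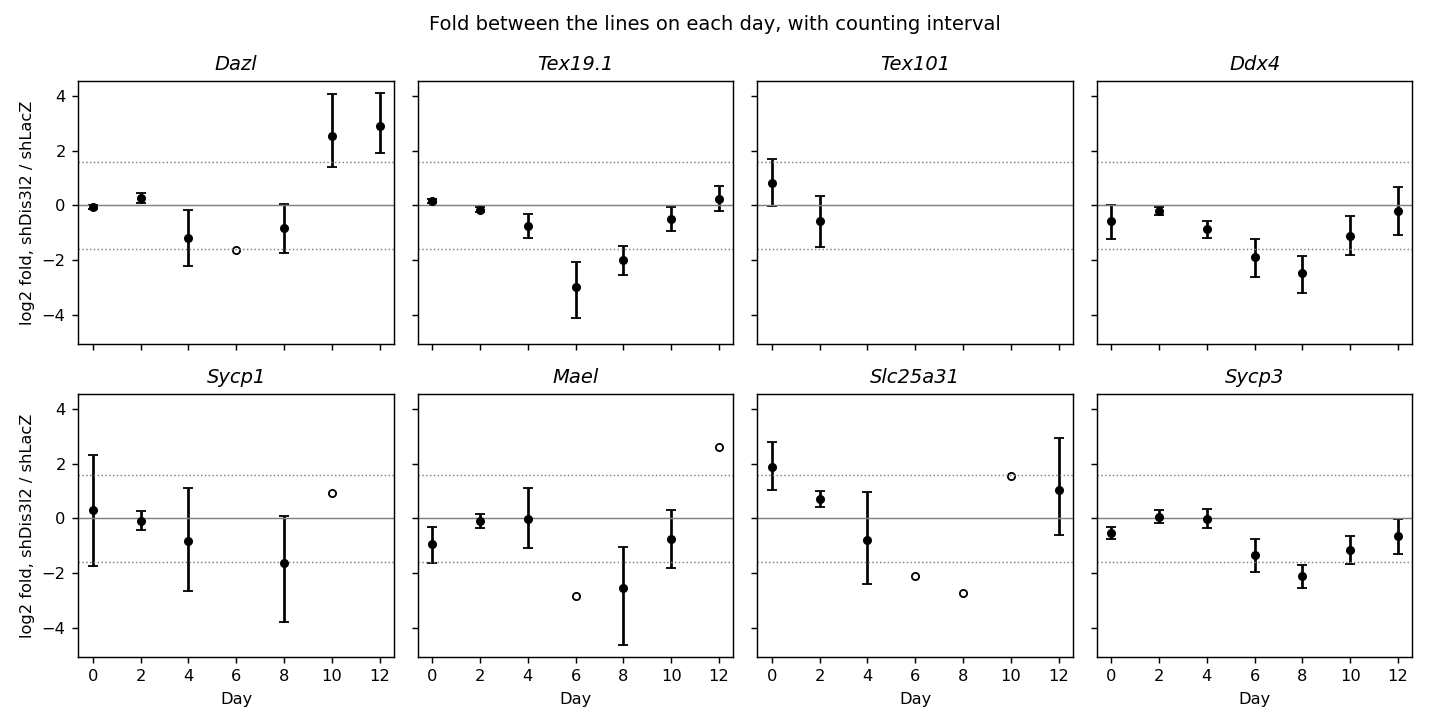
Log2 fold of shDis3l2 over shLacZ by day for each gene, with 95% counting intervals, from 1 library per line and day. Open points rest on 1 to 3 reads in a library and carry no interval, days with no read in a library or at most 3 reads in both are left out, and dotted lines mark 3-fold. Most points lie below 0 at d6 and d8, and Dazl lies above the upper line at d10 and d12.

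With the 7 days as a block, none of the 8 genes differed between the lines by edgeR, beside 1.91% of genes called higher and 3.82% lower in shDis3l2. Ddx4 (-1.01, adjusted p = 0.0692) and Sycp3 (-0.78, adjusted p = 0.113) had an unadjusted p under 0.05, and DESeq2 called 1 of the 8, Ddx4 (adjusted p = 0.0139). Over d6 to d12 alone, 5 of the 8 had enough reads to be tested. Sycp3 was lower in shDis3l2 by a log2 difference of -1.36 (SE 0.25, adjusted p = 0.00645) and Ddx4 by -1.48 (SE 0.37, adjusted p = 0.0191), and none was higher, beside 18.7% of all 17164 genes lower and 19.6% higher. Chpt1, which overlaps Sycp3, had 15.1 CPM (shLacZ) and 12.8 CPM (shDis3l2) at d6, and in the same order 14.8 and 15.3 CPM at d8, 14.04 and 19.4 CPM at d10 and 15.7 and 19.7 CPM at d12. Tex19.1 (-1.16, adjusted p = 0.0978), Mael (-0.68, adjusted p = 0.529) and Dazl (0.96, adjusted p = 0.355) did not pass by edgeR with the filter. Tex19.1 was called lower by DESeq2 (-1.27, adjusted p = 0.0335) and without the filter (-1.14, adjusted p = 0.0155). Without d8 or without d10 the call for Ddx4 was lost (-1.11 and -1.61), and without d12 Tex19.1 was called as well (-1.66, adjusted p = 0.029). The difference between the lines at d0 was also set against that on the later days. None of the 8 genes was called by edgeR, and none had an unadjusted p under 0.05. None of the 4 to which DESeq2 gave an adjusted p was called by it. Of 21183 genes tested edgeR called 0.245% higher and 0.939% lower. The estimates were imprecise, with 2.11 (SE 1.06) for Slc25a31 and 1.75 (SE 1.19) for Tex101. In simulated data edgeR recovered 10 of 100 planted log2 differences of 1.5 in this comparison and 70 of 100 of 3, so the lack of calls does not show equal differences.

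The other genes were described by lists, chosen with results of these data known. Of 27 further germline genes held silent by DNA methylation, 19 were called higher at d0 than later and 4 lower, with a median log2 difference of 2.43, beside 35.2% and 39.2% of all genes tested and a median of -0.24. The largest were Tuba3b (7.07) and Tuba3a (6.59), near-identical tubulin genes among which reads may be split, Fkbp6 (6.53), a cochaperone of the piRNA pathway, and Gtsf1 (5.78), a piRNA factor. From d0 to d2, 7 of the 27 rose and 9 fell, beside 34.5% and 31.0% of all genes. From d2 to d4, 21 of 27 were called lower and none higher, with a median of -2.96, beside 8.23% and 9.25% of all genes. Tuba3a, for example, was counted at 217 and 188 CPM at d0, 29.4 and 34.9 CPM at d2 and 2.93 and 2.42 CPM at d4. Over d6 to d12, 4 of the 19 tested were lower in shDis3l2 and 2 higher, beside 18.7% and 19.6%.

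Among 19 tested genes of the synaptonemal complex and of meiotic recombination, 8 were higher at d0 than later and 6 lower, beside 35.2% and 39.2% of all genes. Hormad2, a protein of meiotic chromosome axes, was higher at d0 by 5.19, and Majin, which tethers telomeres to the nuclear envelope, by 3.55. Rad21l, a meiotic cohesin subunit, had no read in either d0 library and 1.21 and 1.03 CPM at d2. Stra8, a retinoic acid target that starts meiosis, was higher at d0 than the mean of the later days by 4.48. It stood at 1.83 (shLacZ) and 5.02 CPM (shDis3l2) at d0, below its shDis3l2 levels at d10 and d12. Over d6 to d12 Stra8 was higher in shDis3l2 by 4.60 (SE 0.38, adjusted p = 7.89e-04), with 1.07 CPM at d8, 9.52 at d10 and 8.71 at d12 against 0.0592, 0.242 and 0.397 CPM in shLacZ. Of 15 tested primordial germ cell regulators, 10 were higher at d0 and 3 lower, beside the same shares. Prdm14 (4.93) and Nanos3 (3.86) were higher at d0, and both already stood at 0.227 to 0.493 CPM in the d2 libraries. Sox17 (-5.87), which also marks endoderm, and Tdrd7 (-4.84) were lower at d0 than later.

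The de novo methyltransferases Dnmt3a, Dnmt3b and Dnmt3c rose from d0 to d2. Of 18 writers, readers and erasers of DNA methylation, 9 rose and 2 fell, beside 34.5% and 31.0% of all genes tested, with a median of 0.90 against 0.12. Tet1, an eraser, also rose, by 2.96 on the log2 scale. The 2 that fell were Uhrf1 (-1.31) and Mbd3 (-0.75). Dnmt3l is counted both in this list and among the 27 further germline genes. Dnmt3c, a de novo enzyme of rodents known from the male germ line, was counted at 0.20 and 0.038 CPM at d0 and 137 and 113 CPM at d2. Dnmt3a rose from 10.5 and 4.12 CPM to 578 and 547 CPM, and Dnmt3b from 41.0 and 39.9 CPM to 2295 and 1917 CPM. Dnmt3c is similar enough in sequence to Dnmt3b for reads to be split between them. Dnmt3b had a log2 difference of -2.35 (adjusted p = 0.00439) between shDis3l2 and shLacZ over d6 to d12 and Dnmt3c one of -2.46 (adjusted p = 0.00588), while Dnmt3a was higher in shDis3l2 by 0.50 (adjusted p = 0.0355). Tet3, which oxidises methylated cytosine, was lower at d0 than later by a log2 difference of -3.61. No methylation was measured in these samples.

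**Figure D4:**
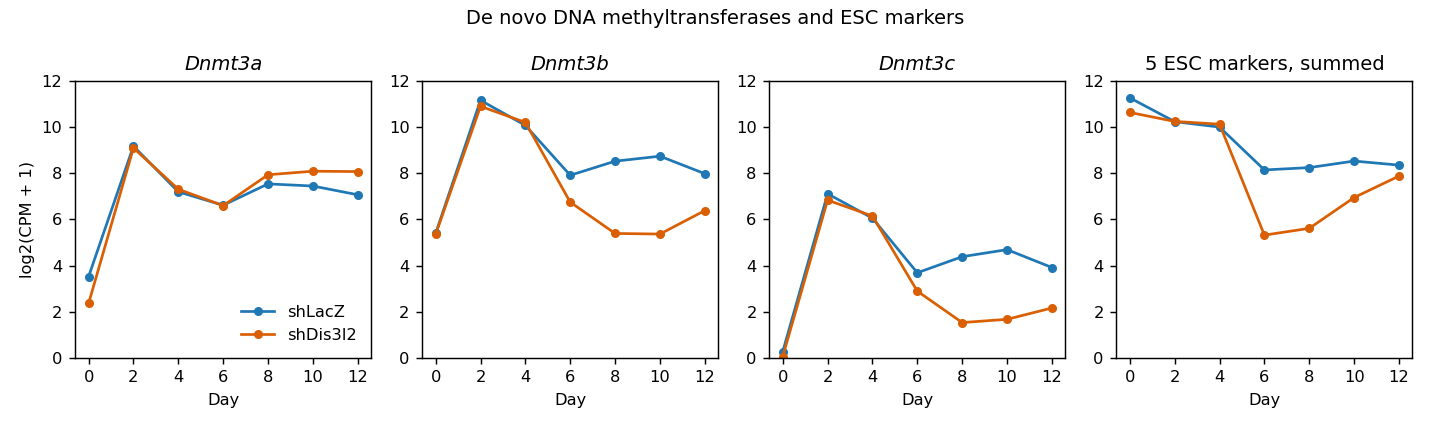
Level of Dnmt3a, Dnmt3b and Dnmt3c and summed level of 5 ESC markers as log2(CPM + 1) against day, shLacZ in blue and shDis3l2 in orange, 1 library per point. The 3 methyltransferases are at their highest at d2 in both lines, and the summed level of the ESC markers is lower in shDis3l2 from d6 to d12.

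Repressors that act on germline promoters, including the PRC1.6 complex and E2f6, had 6 of 21 members higher at d0 than later and 8 lower, beside 35.2% and 39.2% of all genes. Trim28 (1.86) and Wdr5 (2.04) were higher at d0, and Yaf2 (-2.87) and Tfdp1 (-2.06) lower. Of 12 pluripotency genes 11 were higher at d0 than later and none lower, led by Klf2 (5.77), Tfcp2l1 (4.87), Esrrb (4.75) and Nanog (3.6), and 8 fell from d0 to d2, when none rose. Over d6 to d12, 10 of the 12 were lower in shDis3l2, beside 18.7% of all genes. Genes of the 2-cell-like state, a rare state of ESC cultures marked by Zscan4, also rose to d2. Of 14 tested, 13 rose from d0 to d2 and 1 (Eif1a) fell, beside 34.5% and 31.0%, with a median of 4.28. Zscan4f was counted at 1.81 and 0.34 CPM at d0 and 53.3 and 33.2 CPM at d2, and Zscan4b and Zscan4e, close copies of it whose reads may be split, were higher at d2 by 7.17 and 7.32 on the log2 scale. At d0 Zscan4b stood at 0.15 and 0 CPM and Zscan4e at 0.05 and 0 CPM, so both sizes rest on levels at or close to the floor.

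Of 15 tested paralogs of the 8 genes, 10 were higher at d0 than later and 2 were lower, beside 35.2% and 39.2%. The 10 were Tex19.2 (4.34), Slc25a4 (0.29) and otherwise only Xlr genes. The Xlr genes, X-linked relatives of Sycp3 with many near-identical copies, differed between the lines. Over the 7 days 8 of 15 paralogs were lower in shDis3l2 and none higher, beside 3.82% and 1.91% of all genes, all 8 of them Xlr genes, and over d6 to d12 8 of 11 were lower, beside 18.7%, 7 of them Xlr genes and the other Slc25a5, a mitochondrial ADP/ATP carrier. Xlr4c, for example, was counted at 7.0 and 2.72 CPM at d0 in shLacZ and shDis3l2, and at 1.49 and 0.66 CPM at d12. Xlr5a (4.25) and Xlr5c (3.66) were also higher at d0 than later.

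The likeness of courses was described by Pearson's r of log2(CPM + 1) over the 14 libraries, which share their depth and composition, against 15350 protein-coding genes. Among the 8 genes themselves r ran from 0.0068 for Dazl and Ddx4 to 0.92 for Sycp1 and Slc25a31, with 0.92 also for Sycp1 and Mael and 0.90 for Tex19.1 and Tex101. The closest genes outside them were Tuba3a for Dazl (0.986), Stk31 for Tex19.1 (0.980), Omp for Tex101 (0.976), Ddx20 for Ddx4 (0.975), Slc17a6 for Sycp1 (0.990), Gm10324 for Mael (0.963), Tktl1 for Slc25a31 (0.974) and Terf1 for Sycp3 (0.944). With TMM-scaled CPM r for Ddx20 was 0.83, and none of the 3 genes closest to Ddx4 stayed among its 3 closest. By Spearman's rho none of the 8 genes named here stayed among the 3 closest to its germline gene. Tuba3a and Stk31 are themselves on the list of further germline genes. The mean standardised course of the 8 was closest to Rhd (0.987), followed by Zfp981 (0.983), Zfp936 (0.982), Pias2 (0.979, and 0.899 with TMM-scaled CPM) and Pml (0.979). The last of these, Pml, was also among the 3 closest to Mael (0.958).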

How the data were processed

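PolyA RNA was measured in 14 libraries, 1 for each line on each day. Alignment to GRCm38 by the authors used Subread and gene counting used featureCounts. The deposited counts are whole reads, not normalized. The deposited CPM values of protein-coding genes were reproduced by adding 0.25 to each count and scaling to the sum over the listed genes, and served for comparison. Between 7178712 and 39888099 reads per library set the precision, and intervals (exact, 95%) and the floor of 3 counts cover counting error only. CPM and RPKM were computed here from all reads on genes.

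Groups follow the sample labels. The tests of time and line ran in R 4.3.3 by the quasi-likelihood method of edgeR 4.0.16 (TMM, low counts removed by filterByExpr, Benjamini-Hochberg adjusted p under 0.05), with day and line in the model, or day as a block for the lines. Lines thus stand in for replicates of a day and days for replicates of a line, which tests neither against other cultures, and the spread may be technical. Folds on a day needed at least 3-fold, a CPM of at least 1 and more than 3 reads in 1 library, and used a prior count of 0.25. Alternatives were library totals, RLE size factors, protein-coding totals, no filter, DESeq2 1.42.0, no line term, other CPM minimums and leaving out each day or d0 library. The fits and intervals were tested on simulated data. In the test of the fits, on 20050 genes, edgeR called 13 genes without a planted difference between the lines over 7 days and DESeq2 49. Over d6 to d12 such calls were 8 and 54, and for d6 and d8 against d10 and d12 they were 9 and 33. Calls made by DESeq2 alone carry that limit. DESeq2 also recovered more planted log2 differences of 1.5, 99 against 94 of 100 over 7 days.

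All 8 genes were named in every comparison, and from each list those past the threshold with the 4 largest differences between d0 and later days, beside the closest courses. Slc25a4, Slc25a5, Chpt1, single cell type markers and single examples of other values were named after their values were seen. The members and lists were chosen with earlier results of these data known. Promoters came from RefSeq, and overlaps from GENCODE M21. Six6os1 and Dux, of the meiotic and 2-cell-like lists, matched no gene.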

Additional observations from a re-analysis of the deposited data

Results flagged for a closer look

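The estimated difference between the lines changed sign after d8 in Dazl and Slc25a31, though not every estimate lay beyond counting error. For Dazl the log2 fold of shDis3l2 over shLacZ was -1.63 (d6) and -0.82 (d8), then 2.55 (d10) and 2.90 (d12). As ratios, the 95% intervals of Dazl held no difference at d6 (0.0568 to 1.16) and d8 (0.299 to 1.04), unlike those at d10 and d12. For Slc25a31 the values were -2.10 and -2.73 on the earlier pair of days and 1.54 and 1.03 on the later pair, from 1 to 11 reads per library. Its intervals held no difference at d6 (0.00454 to 1.72), d10 (0.42 to 139) and d12 (0.665 to 7.63). The turn was tested for the 5 genes with enough reads, in a comparison chosen after the levels were seen. For Dazl the difference at d6 and d8 minus that at d10 and d12 was -3.79 on the log2 scale (SE 0.56), with an adjusted p of 0.136 by edgeR and 0.0443 by DESeq2. Of 17164 genes tested edgeR called 0, with 1770 at an unadjusted p under 0.05, and DESeq2 called 157. Of the 5 germline genes tested, 4 had an unadjusted p under 0.05 by edgeR. They include Ddx4, whose log2 fold stayed below 0 at d10 (-1.10) and d12 (-0.20), and Tex19.1, still below 0 at d10 (-0.50). A low p here can thus mean a change in size without a change of sign. As the days were split by the same levels, these p-values cannot serve as support for a turn. For Slc25a31 the turn was not tested.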

How the results depend on the processing

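Of the log2 differences of the 8 genes compared with the reported ones, 275 of 296 kept their sign and side of the threshold under other scalings, filters, tests or models, and 304 of 335 when 1 day or d0 library was left out. With library totals Sycp3 (0.44), Tex19.1 (0.22) and Tex101 (0.30) turned positive from d0 to d2, and 3 genes instead of 5 were called at d10. Without the line term 3 genes instead of 5 were called at d0 against later days and at d6, and 2170 instead of 3506 genes between d2 and d4. Between the lines over the 7 days, 1 of the 8 was called without a filter and by DESeq2, with 2093 and 2522 genes called instead of 1147. For the difference at d0 against later days, 781 genes were called with library totals and 1241 by DESeq2 instead of 251, of which 7.94% and 63.8% instead of 20.7% were higher. With no minimum CPM, 1 gene was 3-fold higher at d4 and 6 lower at d6, and with a minimum of 5 the number higher was 0 at d0 and d10 and 1 at d12. By Spearman's rho 4 of the 10 courses closest to the mean course stayed among the 10, and with TMM-scaled CPM 7 did.

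Leaving out a day or a d0 library gave 8 (without d10) to 2205 genes (without shDis3l2 d0) between the lines over 7 days, 3336 (without d10) to 6677 over d6 to d12, and 69 to 435 (without d2) for the difference at d0. The 8 genes had 1 to 3 calls over d6 to d12, 3 to 5 from d0 to d2, 3 to 6 at d6, 2 to 5 at d8 and 2 to 5 at d10. Slc25a31 ran from -0.13 to 2.00 at d0 against later days, Sycp3 from -0.0271 to 0.0006 between d2 and d4. From d0 to d2 Sycp3 ran from -0.46 to 0.12, Tex19.1 from -0.97 to 0.31 and Tex101 from -1.19 to 0.60, with the low end without shLacZ d0 and the high end without shDis3l2 d0. The causes were not tested. Depth limited Tex101, Sycp1 and Slc25a31 after d4, with at most 11 reads per library. Lines were paired by day, since the labels carry no replicate numbers.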
